A study of Nicotiana tabacum with 10 samples.

Results

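A set of 27 tobacco gene models was read in every library of auxin-supplied cells and was nearly absent from every library of cells grown without auxin. The models were selected on their estimated reads: at least 10 CPM (reads per 1000000 reads of the library) in each of 7 control libraries, and at most 3 estimated reads in each of 3 auxin-free libraries. They were 27 of the 69500 models in the deposited files, and 27 of the 12276 models that reached 10 CPM in every control. Because these same reads chose them, their difference between the groups is a description here, and nothing is supported with it.

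The cells were BY-2, a fast-growing suspension line of Nicotiana tabacum cv. Bright Yellow 2, and RNA was sequenced from whole cultures. The 3 auxin-free samples came from cells inoculated into Murashige and Skoog medium lacking 2,4-D (2,4-dichlorophenoxyacetic acid, a synthetic auxin). The 7 control samples came from medium that held 2,4-D at 0.2 mg/l. All samples were taken 48 h after inoculation and are labelled exponential phase. BY-2 is a single cell line, and no label states that the auxin-free replicates were separate cultures, so errors and p-values cover only differences among these samples, which may be technical. In bulk RNA of this kind, fewer cells that hold a transcript and less of it per cell cannot be told apart.

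Auxin acts on transcription through receptors that mark Aux/IAA repressor proteins for destruction, which frees the auxin response factors that those repressors hold inactive. Transcripts of the Aux/IAA, GH3 and SAUR families are known to rise when auxin is supplied, and BY-2 cells need an auxin in their medium to keep dividing. The deposited identifiers, of the Nitab4.5 kind, could not be paired with names: 0 of the 69500 matched the 79372 genes of the RefSeq table used here, which is of another assembly. The 27 models are therefore given by identifier, with no name, role or sequence, and the cell line could not be checked against marker genes.

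Library totals ran from 15159895 to 16216471 estimated reads in the auxin-free samples and from 11280031 to 23705016 in the controls. The 27 models together held 12.7, 21.6 and 31.7 estimated reads in auxin-free replicates 1, 2 and 3, which is 0.835, 1.33 and 1.95 CPM. In the controls they held 886 CPM at the lowest, 927 at the median and 1036 at the highest, or 0.0933% ± 0.00494 of all reads (SD, n = 7). The auxin-free sums were 0.0896%, 0.143% and 0.209% of the mean control sum. Auxin-free replicate 3 held the most of the remaining reads and replicate 1 the fewest: 19 of the 27 models were at 0 in replicate 1, 13 in replicate 2 and 9 in replicate 3. At their control level and the depth of the auxin-free libraries, single models would have given between 195 and 1840 reads per library, far above the 3 reads that the selection allowed.

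**Figure D1:**
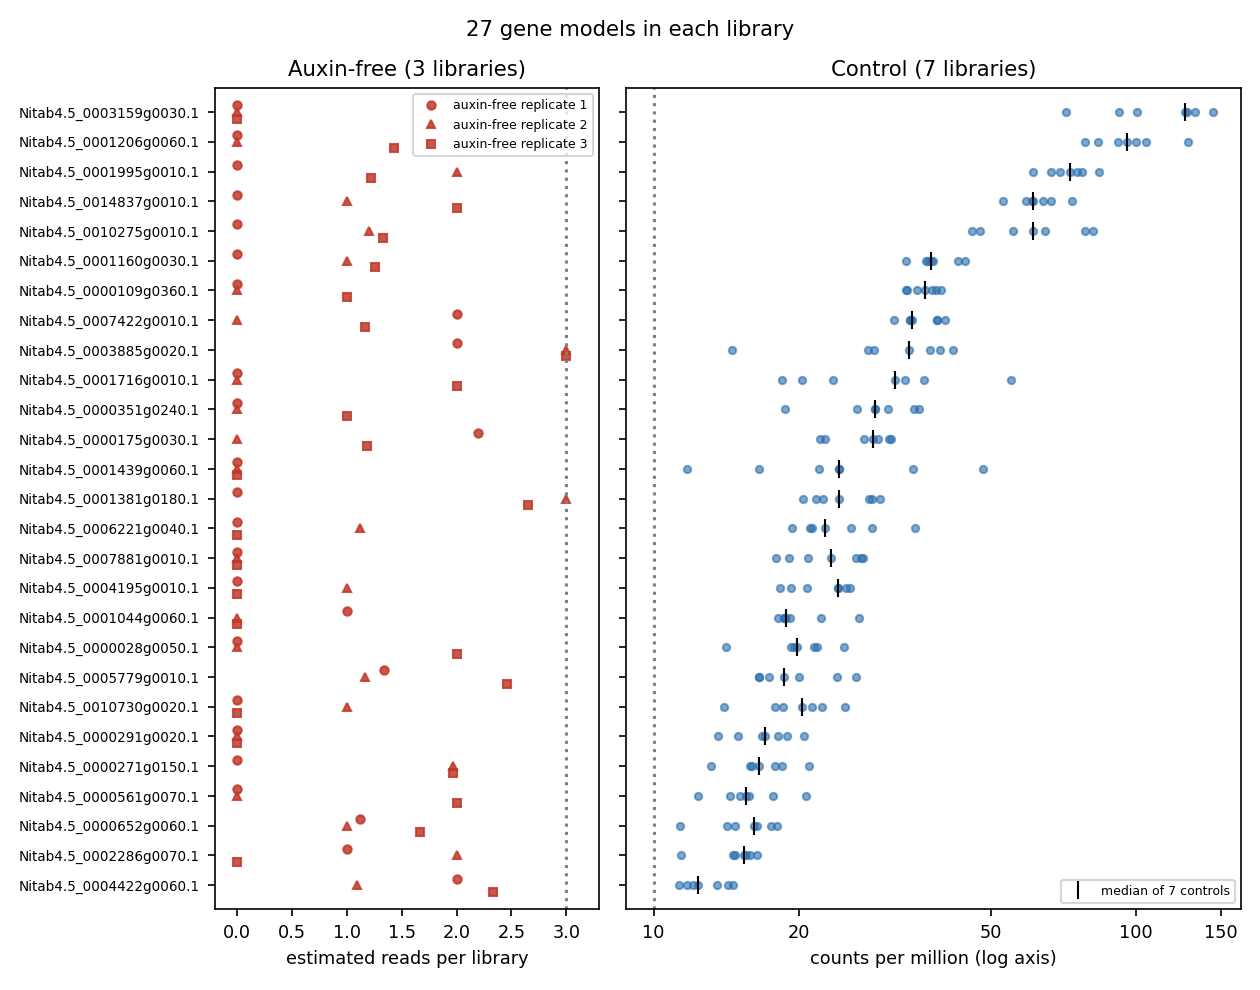
Each of the 27 models in every library, ordered by mean control level: estimated reads in the 3 auxin-free libraries on the left (linear axis, dotted line at the maximum of 3), and CPM in the 7 controls on the right (log axis, dotted line at the minimum of 10, bar at the median). Every auxin-free point is at 3 reads or fewer, while the control levels run from 11.3 to 144 CPM.

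For 4 models the absence was complete in the data: no read was assigned to them in any auxin-free library. Nitab4.5_0003159g0030.1, of 546 bases, was at 0 in all 3 auxin-free libraries and at 71.4, 126 and 144 CPM at the lowest, median and highest of the controls. It was also the most abundant of the 27, with 113 ± 26 CPM in the controls (SD, n = 7), and was at least 1799-fold lower without auxin. This bound sets 3 reads over the 3 auxin-free libraries together against the control mean, and like the other bounds and intervals it covers counting error only. Nitab4.5_0001439g0060.1, of 1830 bases, was at 0 in the auxin-free libraries and at 11.7, 24.2 and 48.2 CPM at the lowest, median and highest control, at least 411-fold lower. Its control libraries differed more than those of any other of the 27 models. Nitab4.5_0007881g0010.1, of 636 bases, was likewise at 0, against 17.9, 23.3 and 27.2 CPM at the lowest, median and highest control (at least 366-fold lower). Nitab4.5_0000291g0020.1, of 1014 bases, was at 0 and had 13.6, 17.0 and 20.4 CPM in the same order in the controls (at least 271-fold lower). These 4 spanned the range of control levels from rank 1 to rank 22 of the 27, so complete absence did not go only with low abundance.

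The other models among the 5 most abundant kept between 1 and 4 estimated reads over the 3 auxin-free libraries together. Nitab4.5_0001206g0060.1, of 1125 bases, had 0, 0 and 1.43 reads in auxin-free replicates 1 to 3, against 78.2, 95.8 and 128 CPM at the lowest, median and highest control. Its auxin-free level was 0.0309% of the control mean (95% counting interval 0.000546 to 0.12%, from rounded reads), the lowest share among the models with any auxin-free read. Nitab4.5_0001995g0010.1, of 999 bases, had 0, 2.00 and 1.22 reads in the auxin-free replicates and 61.2, 72.8 and 83.8 CPM at the lowest, median and highest control. Nitab4.5_0014837g0010.1, of 1182 bases, had 0, 1.00 and 2.00 reads, against 52.9, 61.3 and 73.6 CPM. Nitab4.5_0010275g0010.1, of 1731 bases, had 0, 1.2 and 1.33 reads, against 45.7, 61.1 and 81.5 CPM. All 5 were at 0 in auxin-free replicate 1, and their control libraries lay at 45.7 CPM or above.

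At the lower end of the set, the control levels approached the minimum that the selection demanded. Nitab4.5_0004422g0060.1, of 957 bases, had 2.00, 1.10 and 2.33 reads in auxin-free replicates 1 to 3 and 11.3, 12.4 and 14.6 CPM at the lowest, median and highest control. Its auxin-free level of 0.888% of the control mean (95% counting interval 0.266 to 1.91%) was the highest share of the 27. Nitab4.5_0002286g0070.1, of 426 bases, had 1.00, 2.00 and 0 reads without auxin, against 11.4, 15.4 and 16.4 CPM in the controls. Nitab4.5_0000652g0060.1, of 1190 bases, had 1.12, 1.00 and 1.67 reads, against 11.3, 16.1 and 18.0 CPM. The largest auxin-free total, 8 reads, belonged to Nitab4.5_0003885g0020.1, of 685 bases, with 2.00, 3.00 and 3.00 reads against 14.6, 33.7 and 41.6 CPM in the controls. Reads were present in all 3 auxin-free libraries for 4 of the 27 models, in 2 libraries for 9, in 1 library for 10 and in none for the 4 described above.

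Over the 23 models with any auxin-free read, the level without auxin was 0.0309 to 0.888% of the control level, with a median of 0.135%. The 6 models outside the rule for naming, of which Nitab4.5_0001381g0180.1 appears below, had control means of 19.9 to 29.0 CPM and 1.00 to 5.65 auxin-free reads in total. In edgeR's quasi-likelihood test over 37034 models, all 27 were called lower without auxin, at Benjamini-Hochberg adjusted p-values from 4.39e-10 to 8.79e-07, where 30.4% of all tested models were called lower. The selection used this contrast, so that count follows from it.

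Near-complete loss was rare among transcripts present in the controls. Of the 12276 models at 10 CPM or more in every control, 4 had no auxin-free read at all, 74 had at most 10 reads in each auxin-free library, 206 at most 30 and 602 at most 100. The median auxin-free level over the 12276 was 76.9% of the control level (middle 50% of models 45.3 to 126%). A mean auxin-free level under 1% of the control mean was found for 67 of them, including all 27. The boundary at 3 reads passed through a continuous range. Just outside it, Nitab4.5_0004191g0010.1 had 0, 1.07 and 3.145 auxin-free reads with a control median of 35.3 CPM, Nitab4.5_0000080g0010.1 had 0, 3.21 and 3.00 with 31.8 CPM, and Nitab4.5_0004147g0030.1 had 3.22, 2.24 and 2.27 with 14.1 CPM. Just inside it, Nitab4.5_0001381g0180.1, named after its values were seen, had 0, 3.00 and 2.65 auxin-free reads with a control median of 24.2 CPM.

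The control minimum likewise left out models of the same kind. Nitab4.5_0000036g0180.1 and Nitab4.5_0001307g0070.1 had no auxin-free read at all, but their lowest controls were at 8.61 and 8.60 CPM, with medians of 12.5 and 18.8 CPM. Nitab4.5_0002046g0170.1 had 0, 1.08 and 3.00 auxin-free reads and a lowest control of 8.73 CPM.

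**Figure D2:**
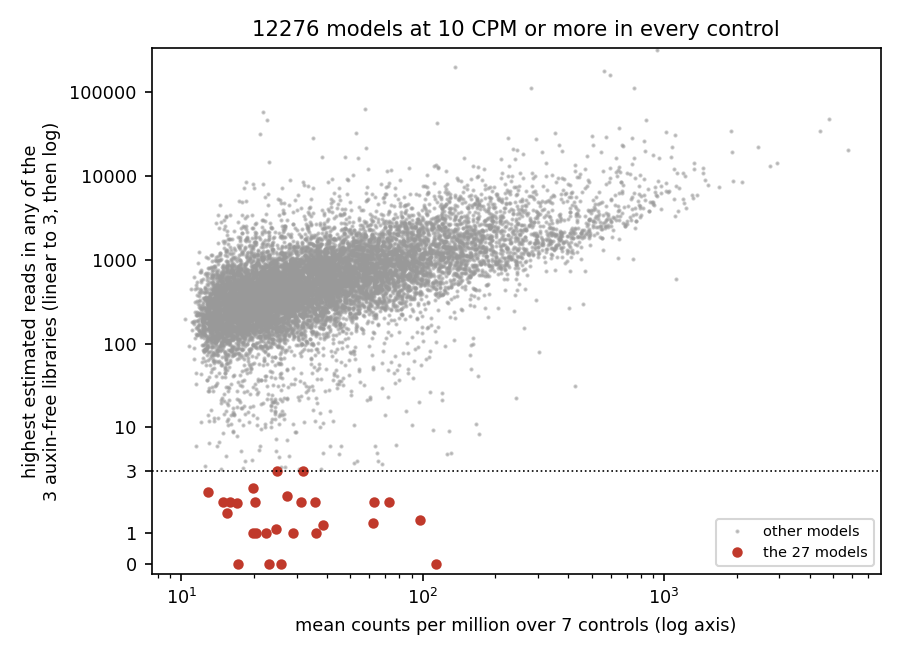
Highest estimated read number in any of the 3 auxin-free libraries (linear to 3, then log) against mean control CPM (log axis) for the 12276 models at 10 CPM or more in every control; the 27 models are in red and the dotted line marks 3 reads. The 27 lie below a thin scatter of models with few auxin-free reads, and 4 of them lie at 0.

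Each library was also read with models that it had not helped to choose. Those that also met the limit in the left-out library are by construction the 27 of the full selection. Only the number that qualified without a library, and their levels in it, could vary. The replicates may be technical, so this is a description and not an independent check. When auxin-free replicate 1 was left out of the selection, 31 models qualified, and 27 of these had at most 3 reads in it, against 0.587% of the 12276 models present in the controls. Their median in that library was 0 reads and their highest 14.0 reads. Without auxin-free replicate 2, 35 models qualified and 27 had at most 3 reads in it, against 1.01% of the 12276. Their median was 1.00 read and their highest 47.0 reads. Without auxin-free replicate 3 the number rose to 49, of which 27 had at most 3 reads in that library, against 0.326% of the 12276. In replicate 3 these 49 had a median of 2.46 reads and a highest of 31.0 reads, and 40 of them lay under 1% of their control mean. The size of the set thus depended most on auxin-free replicate 3, and the left-out library still held a median of 0, 0.235 and 0.447% of the control level in replicates 1, 2 and 3. Leaving out any control changed the number by at most 1 model, with 27 or 28 qualifying, and in the left-out control the models lay at a median of 90.7 to 107% of the mean of the other controls.

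Among the 7 controls the 27 models varied about as much as other models present in the controls. The CV, the SD over the controls divided by their mean, had a median of 0.153 (range 0.0667 to 0.467), beside a median of 0.163 over the 12276 models present in the controls. For 23 of the 27 the highest control was less than 2 times the lowest, a share that is not given here for the 12276. The steadiest was Nitab4.5_0000109g0360.1, of 690 bases, with 0, 0 and 1.00 auxin-free reads and 33.3, 36.5 and 39.4 CPM at the lowest, median and highest control (CV 0.0667). Nitab4.5_0007422g0010.1 had 2.01, 0 and 1.17 auxin-free reads and 31.5 to 40.1 CPM in the controls (CV 0.0897), and Nitab4.5_0001160g0030.1 had 0, 1.00 and 1.25 auxin-free reads and 33.4 to 44.1 CPM (CV 0.0961). The CVs of the 5 most abundant models ran from 0.102 to 0.229.

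Nitab4.5_0001439g0060.1, which had no auxin-free read, varied most, with a CV of 0.467. Its control replicates 1 to 7 were at 22.1, 16.5, 24.3, 24.2, 11.7, 34.4 and 48.2 CPM, so that replicate 7 was 4.11 times replicate 5. Nitab4.5_0001716g0010.1, of 1317 bases, had 0, 0 and 2.00 auxin-free reads and was at 31.7, 18.4, 36.4, 33.2, 20.3, 23.6 and 55.0 CPM in control replicates 1 to 7 (CV 0.401). It too was highest in control replicate 7. Nitab4.5_0003885g0020.1 was at 33.7, 41.6, 27.8, 37.5, 39.2, 14.6 and 28.6 CPM in the same controls (CV 0.29), with its lowest value in replicate 6. The lowest control thus differed between these models, at replicates 5, 2 and 6 in the order given. Their highest control was replicate 7 in Nitab4.5_0001439g0060.1 and Nitab4.5_0001716g0010.1, and replicate 2 in Nitab4.5_0003885g0020.1.

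Control replicate 7 held the highest summed level, 1036 CPM, against 886 to 932 CPM in the other 6 controls, and was the highest control for 9 of the 27 models and the lowest for 4. Control replicate 6 was the lowest for 8 models and the highest for 4. In 5 models control replicates 6 and 7 both lay above the other 5 controls, as in Nitab4.5_0001439g0060.1 and Nitab4.5_0010275g0010.1, and in 2 models both lay below them, namely Nitab4.5_0003159g0030.1 and Nitab4.5_0000561g0070.1. These counts were made after the values were seen, and no such counts are given here for the other models present in the controls. Whether these orders of the controls are particular to the 27 models was therefore not tested. Even the lowest control of each model, in reads, held 160 to 942 reads.

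**Figure D3:**
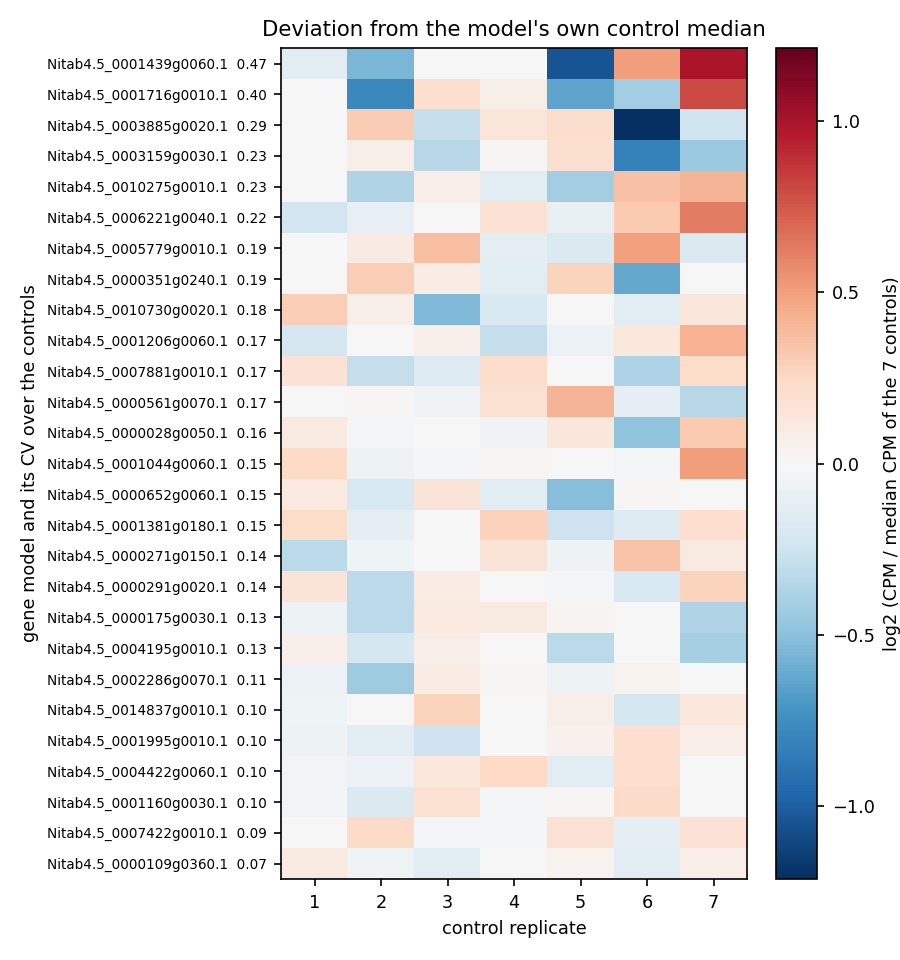
Level of each of the 27 models in control replicates 1 to 7, as log2 of its CPM over its own control median; rows are ordered by CV, printed beside each identifier. The strongest deviations are in the top rows, with Nitab4.5_0001439g0060.1 high in replicate 7 and low in replicate 5, and Nitab4.5_0003885g0020.1 low in replicate 6.

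Most of the 27 models were shorter than the median model present in the controls. Their median length was 1053 bases (middle 50% 638 to 1188), beside 1374.5 bases (954 to 1997) over the 12276. The median was 1185 bases over all tested models and 901 bases over all 69500, so the 27 were not short beside all models. Of the 27, 24 were shorter than the median of the 12276, and 10, 14, 2 and 1 fell into the 4 equal length classes of the 12276 from short to long. Only 1 of the 27, or 3.7%, exceeded 2000 bases, beside 24.9% of the 12276. Length was not itself a limit of the selection, but both limits were set on reads without a correction for length. At an equal level per base a longer model gives more reads, so the limit of 3 reads was not free of length. How much of the difference in length this accounts for was not tested. No test was made over models, which are not replicates. The lengths of 24 of the 27 were multiples of 3, or 88.9%. This held for 62.7% of the 12276, 76.8% of all tested models and 83.7% of all 69500 models. The length may thus be a coding length without untranslated parts for most of the 27, as for most models in general. Under the reverse selection, with the groups exchanged in both limits, 66 models qualified, with a median length of 1004 bases.

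The longest of the 27 was Nitab4.5_0005779g0010.1, of 2043 bases, with 1.34, 1.17 and 2.46 auxin-free reads and 16.5, 18.6 and 26.3 CPM at the lowest, median and highest control. The shortest was Nitab4.5_0000271g0150.1, of 249 bases, with 0, 1.97 and 1.97 auxin-free reads and 13.2, 16.6 and 21.0 CPM. Per length, on the deposited TPM scale, the median control level of the 27 models ran from 5.81 TPM in the longest to 502 TPM in the shortest, with a median of 21.3 TPM. The value of the shortest rests on an effective length of 20 bases in every control and is not comparable with the others. Apart from it, Nitab4.5_0003159g0030.1 was highest per length as well as per library, at 194 TPM. That value too depends on the estimated effective length, which ran from 250 to 360 bases over the controls for this model of 546 bases. Nitab4.5_0001044g0060.1, of 537 bases, was at an effective length of 250 bases in every control.

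**Figure D4:**
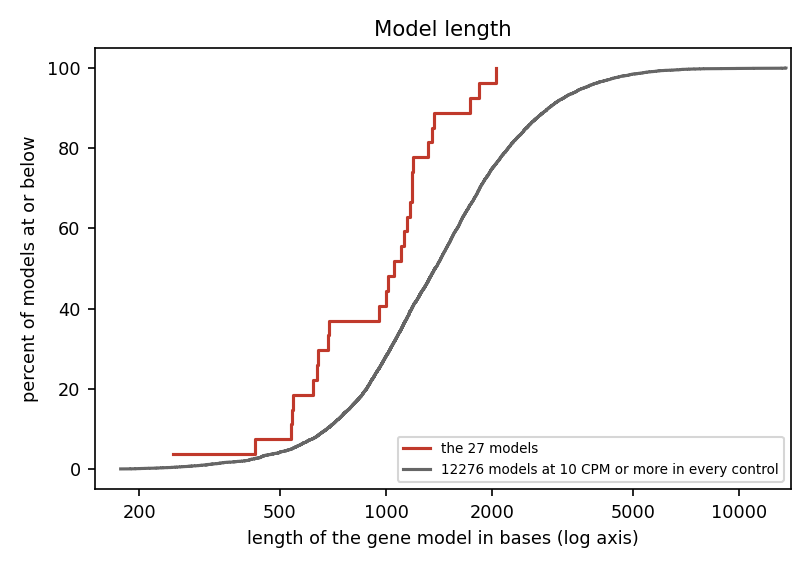
Cumulative percent of models by length in bases (log axis) for the 27 models, in red, and for all 12276 models at 10 CPM or more in every control, in grey. The red line lies to the left, with medians of 1053 and 1374.5 bases, and ends at 2043 bases.

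Whole counts in all 10 libraries were found for 1 of the 27, or 3.7%, beside 2.66% of the 12276. Salmon, the program that made the estimates, divides a read that matches several models among them, which leaves counts that are not whole, and tobacco carries near-identical gene copies from its 2 parental genomes. Only Nitab4.5_0000561g0070.1, of 1053 bases, had whole counts in all 10 libraries (tolerance 0.001 reads), with 0, 0 and 2.00 auxin-free reads and 12.3, 15.6 and 20.7 CPM at the lowest, median and highest control. For 23 models no control count was whole, and 3 had whole counts in some controls. The level of these models, and their absence, can depend on how shared reads were divided, which was not tested.

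The 27 models lay on 27 different scaffolds, the assembled pieces of sequence that the first number of an identifier was read to name. The number after the letter g was read as the order of models along a scaffold. On each of the 12822 scaffolds the files list the models together and in that order. Distances between models are not in the files. For 3 of the 27 no other model was listed on the scaffold, and 5 were the first and 1 the last of several.

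Models next to the 27 were called lower about as often as tested models in general. The 24 models with a listed neighbour had 42 immediate neighbours, none of them among the 27. Of these, 8 had no read in any of the 10 libraries and 14, those 8 included, were too low to test. Of the 28 tested, 9 were called lower without auxin, 8 higher and 11 neither (edgeR, adjusted p of 0.05). That is 32.1% lower and 28.6% higher, beside 30.4% lower and 32.9% higher, or 63.3% in either direction, among all tested models. The median log2 fold change of auxin-free over control was -0.04 in the 28 neighbours and 0.02 in all tested models. Of the 20 models with a tested neighbour, 13 had none that was called lower. Over all 227 tested other models of these scaffolds, 74 were lower and 74 higher.

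Neighbours that fell at least 4-fold were 4 of the 28, where 8.0% of all tested models did so. They stood beside 3 of the 27 models. Nitab4.5_0000175g0030.1, of 1098 bases, had 2.19, 0 and 1.18 auxin-free reads and 22.1, 28.5 and 31.0 CPM at the lowest, median and highest control. Its neighbour Nitab4.5_0000175g0040.1 had 0.352, 0.123 and 0.273 CPM without auxin and 2.6, 3.84 and 5.97 CPM in the controls, a log2 fold change of -4.09 ± 0.39 (SE; edgeR adjusted p = 1.48e-06). The neighbour on its other side, Nitab4.5_0000175g0020.1, was higher without auxin, at 12.7, 19.0 and 13.1 CPM against 6.7, 7.65 and 10.5 CPM in the controls (log2 fold change 0.98 ± 0.19 (SE), edgeR adjusted p = 0.000534).

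Both neighbours of Nitab4.5_0003159g0030.1, the most abundant of the 27, also fell, although they were rare in the controls. Nitab4.5_0003159g0020.1 had 0, 0.424 and 0.29 CPM without auxin and 1.01, 1.6 and 3.24 CPM at the lowest, median and highest control (log2 fold change -2.76 ± 0.61 (SE), edgeR adjusted p = 0.00146). Nitab4.5_0003159g0040.1 had 0.0864, 0.966 and 0.0852 CPM without auxin and 2.0, 2.69 and 3.61 CPM in the controls (log2 fold change -2.73 ± 0.59 (SE), edgeR adjusted p = 0.00135). In both the groups did not overlap, but both were named for a fall of at least 4-fold, which favours this. The share of all tested models without overlap is not given here.

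Nitab4.5_0001044g0060.1, of 537 bases, had 1.00, 0 and 0 auxin-free reads and 18.1, 18.8 and 26.7 CPM at the lowest, median and highest control. Its neighbour Nitab4.5_0001044g0070.1 was not lost but fell, to 11.6, 16.4 and 18.9 CPM without auxin against 52.0, 63.5 and 81.3 CPM in the controls (log2 fold change -2.01 ± 0.22 (SE), edgeR adjusted p = 5.78e-06). The neighbour on the other side, Nitab4.5_0001044g0050.1, fell less, with a log2 fold change of -0.98 ± 0.20 (SE; edgeR adjusted p = 0.000806).

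Some neighbours moved the other way. Neighbours that rose at least 4-fold were 3 of the 28, where 11.9% of all tested models did so, and they are named after their values were seen. Nitab4.5_0006221g0050.1 had 2.05, 17.4 and 7.27 CPM without auxin and 0.199, 0.402 and 1.23 CPM at the lowest, median and highest control (log2 fold change 4.29 ± 0.54 (SE), edgeR adjusted p = 1.62e-05). Nitab4.5_0001439g0050.1, next to the model with no auxin-free read that varied most among the controls, had 1.49, 6.84 and 6.89 CPM without auxin against 0.0663, 0.266 and 1.04 CPM (log2 fold change 3.91 ± 0.54 (SE), edgeR adjusted p = 3.66e-05). Nitab4.5_0001381g0190.1 had 4.61, 2.27 and 3.08 CPM without auxin against 0.0667, 0.548 and 0.831 CPM (log2 fold change 2.81 ± 0.47 (SE), edgeR adjusted p = 0.000169). In all 3 the lowest auxin-free library lay above the highest control, which their choice by a rise of at least 4-fold favours. The share of all tested models with this separation is not given here.

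In 2 cases a neighbour had nearly the length of the model beside it. Nitab4.5_0002286g0060.1, of 426 bases like Nitab4.5_0002286g0070.1, had no read in any of the 10 libraries. Nitab4.5_0000271g0140.1, of 246 bases beside the shortest of the 27, had 4.11 reads over all 10 libraries together, none of them in an auxin-free library.

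**Figure D5:**
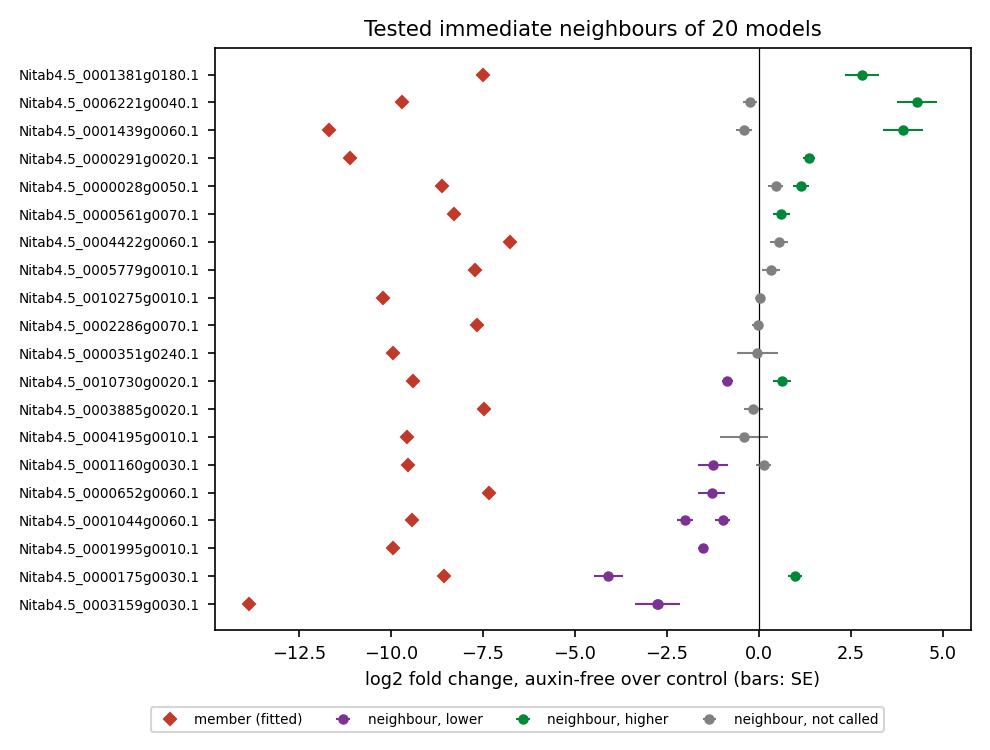
Log2 fold change of auxin-free over control for the 20 models with a tested immediate neighbour (red diamonds, fitted values that depend on the prior count) and for their 28 tested neighbours (circles with SE bars, coloured by call). The neighbours scatter around 0 from -4.09 to 4.29, with 9 lower and 8 higher, while the models themselves lie at -6.77 or below.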

How the data were processed

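RNA from 3 auxin-free and 7 control BY-2 samples was compared. Trimmomatic and Salmon processed the reads, per the submitters' processing notes; for versions, options, index and build, nothing is given in the sources used here. The deposited files give, per the file headers, an estimated count, a TPM value (scaled by effective length), a length and an effective length per gene model. As deposited, the estimated counts carry no normalization, and many are not whole. CPM was computed as the estimated count over the library sum. The models and lists were chosen with earlier results of these data known.

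For tests, counts were rounded and fitted over all 10 libraries by edgeR 4.0.16 under R 4.3.3 (filterByExpr, minimum count of 10, TMM, robust quasi-likelihood F-tests, Benjamini-Hochberg adjustment, threshold 0.05), which was tested on simulated data. SE is the log2 fold change over the square root of F. Alternatives were DESeq2 1.42.0, limma-voom (limma 3.58.1), other scalings and filters, the replicate number as a block, other limits for the selection, and each library left out.

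Models named singly were those with no auxin-free read, the 5 highest and 3 lowest in control level, the 3 highest and 3 lowest in CV, the 2 longest and 2 shortest, those with whole counts or a neighbour that fell at least 4-fold, and the 3 nearest outside each limit of the selection. Intervals are exact Poisson intervals of the summed auxin-free reads.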

Additional observations from a re-analysis of the deposited data

Results flagged for a closer look

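The summed level of the 27 models in control replicate 7, 1036 CPM, stood apart from the other 6 controls. Its gap to the next control, at 932 CPM, was 0.695 of the range over the 7, above Dixon's critical value for 7 samples. Without that library the 27 models took 0.0915% of control reads in place of 0.0933%. The lowest control of Nitab4.5_0002286g0070.1, replicate 2 at 11.4 CPM, was also apart from the next, at 14.6 CPM, with a gap of 0.646 of the range. These were 2 of 29 measures examined, where chance marks about 5% of such groups. The cause of either was not tested.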

How the results depend on the processing

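The number of models depended on the limits of the selection. A control minimum of 5, 20 or 50 CPM gave 66, 10 and 4 models. A maximum of 0, 1, 10 or 30 auxin-free reads gave 4, 9, 74 and 206. A minimum of 10 on the TPM scale gave 83, which held 20 of the 27, and models with whole counts in every library numbered 1. Reads rounded to whole numbers before the limit of 3, chosen after seeing the data, gave 34, all 27 among them, and TMM scaling gave the same 27. Leaving out each library in turn gave 27 to 49 models, the 49 without auxin-free replicate 3. All 27 were called lower in each of the 18 other fits, which follows from their selection on this contrast. Those fits called 20.9 to 35.6% of all tested models lower. Among immediate neighbours, those fits called 8 to 10 lower and 6 to 9 higher. The replicate block gave 27 models lower, with 9 neighbours lower and 7 higher, and without a block the same 6 libraries gave 27, 8 and 8. No label says that equal replicate numbers mark a shared culture, so the numbers were not read as pairs. Same-numbered libraries had correlations of -0.0286, -0.0219 and -0.0597, and differently numbered ones of -0.00741 to 0.0447. With so few libraries these values cannot decide whether the numbers mark pairs. Upper-quartile scaling, under which all tested models had a median log2 fold change of -0.158 in place of 0.0237, gave 10 neighbours lower and 6 higher. The 2 nearest models on either side gave 16 lower and 12 higher, and all other models of the scaffolds 74 and 74, because more models were tested. The median CV ran from 0.121 to 0.195 over other scales and sets of controls. On the TPM scale the 27 models took 0.139% of the control total. Leaving out each control gave shares of 0.0915 to 0.094% and CVs of 0.142 to 0.16.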
